A study of Rattus norvegicus with 12 samples.

Results

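Gene expression in the uterus of progesterone-treated rats was compared between the strains Brown Norway (BN) and Holtzman Sprague Dawley (HSD) by RNA sequencing. The comparison is between 6 of the 12 libraries, 3 from BN and 3 from HSD, chosen by their labelled strain and treatment. All animals were 10 weeks old, had been ovariectomized, were rested for 2 weeks and then received progesterone (P4) under the skin at 40 µg per g body weight, and the uterus was taken 9 h later. The other 6 libraries, 3 per strain, came from animals given sesame oil, the vehicle, and were otherwise handled alike. All 12 were fitted together, so the oil libraries also entered the filter and the estimate of spread behind each p-value. BN is an inbred strain, and the rat reference genome was made from it. HSD is an outbred stock, so its animals are not genetically identical. The labels do not say that each library is a separate animal, and p-values therefore measure the spread between these libraries, which may in part be technical.

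Progesterone acts on the uterus through the progesterone receptor, a nuclear receptor that binds DNA and changes transcription in epithelium, stroma and smooth muscle. In the rodent uterus it restrains estrogen-driven growth of the epithelium and prepares the stroma for implantation. Rat strains differ in many inherited sequence variants, including those of the RT1 complex, the rat major histocompatibility complex, whose class I and class II genes encode the molecules that present peptides to T cells. After removal of the ovaries there is little hormone of ovarian origin, so the treated groups carry mostly the injected progesterone.

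Total gene reads were 12224142, 18859636 and 18164999 in the HSD libraries and 17285699, 15241366 and 19033254 in the BN libraries, of which 90.9% to 92.5% were placed at a single position. Levels are given as CPM, gene reads per 1000000 reads of the library after trimmed mean scaling, for single libraries in the order of their replicate numbers or as mean ± SD (n = 3). Reads in introns made up 19.96% to 23.0% of gene reads in HSD and 22.5% to 24.1% in BN. Mitochondrial genes took 7.83%, 5.04% and 6.61% in HSD and 5.16%, 4.88% and 4.23% in BN. In a principal component analysis of the 6 libraries the first component held 48.8% of the variance and separated the strains. The second held 24.0% and separated HSD replicate 3 (-35.8) from HSD replicate 2 (36.0). HSD replicate 3 also lay below the mean of the 6 libraries in smooth muscle markers by a median of -0.70 on the log2 scale and above it in ribosomal protein genes by 0.44. Some results are given without it as well. Of 160 called genes that met the rules for naming, 39 lost the call without it. More lost it without BN-P4 replicate 1 (75), BN-P4 replicate 3 (65) or HSD-P4 replicate 1 (44). Vwf, Lyz2, Itpr1, Il17rb, Lck, Rab25, Ltbp1 and Tgfb2, described below, were among the 39. The barcodes of the BN and HSD progesterone libraries do not overlap, and a difference in library preparation or sequencing that follows strain cannot be told apart from strain.

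Of 15697 genes with enough reads to test, 900 (5.73%) differed between the strains at an adjusted p below 0.05 in edgeR's quasi-likelihood test and are called below. In BN, 381 genes (2.43%) were higher and 519 (3.31%) lower than in HSD. The median absolute difference of the called genes was 0.94 on the log2 scale. At least 2-fold differences were seen for 156 genes higher and 251 lower in BN, and at least 8-fold differences for 13 higher and 51 lower. The 3 BN values did not overlap the 3 HSD values for 897 of the 900, while 22.6% of all tested genes showed such separation. The calls were made on these same values, so the separation of called genes is not further evidence. Non-overlap was also a rule for naming the largest differences, and stating it for those genes repeats the rule. All differences are given as BN minus HSD on the log2 scale with an approximate standard error, so a negative value means lower in BN.

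The direction of the balance depended on the scaling. With library size alone in place of trimmed mean scaling, 586 genes were higher and 376 lower in BN (60.9% higher, against 42.3%), and the median of all tested genes moved from -0.01 to 0.07. The number called also depended on single libraries: it was 341 without BN-P4 replicate 1, 406 without BN-P4 replicate 3 and 1515 without HSD-P4 replicate 2. When only the 6 progesterone libraries were fitted, 409 genes were called, and 64 of the named genes lost their call. In all 25 alternative analyses 212 genes kept their call, 89 of them higher and 123 lower in BN.

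**Figure D1:**
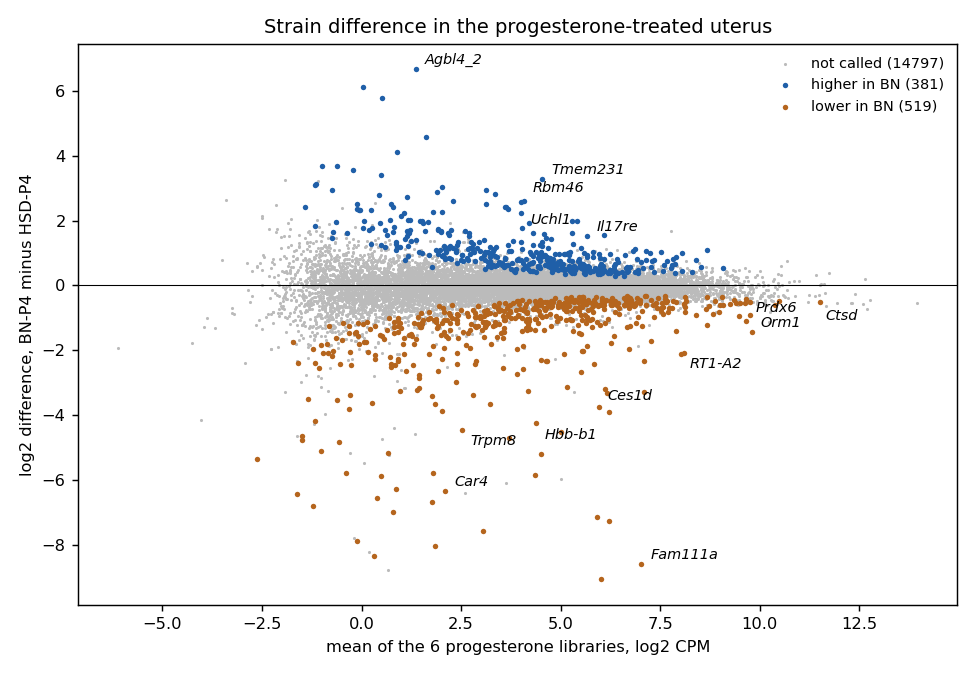
Each point is 1 of 15697 tested genes, with the mean level of the 6 progesterone libraries in log2 CPM on the horizontal axis and the log2 difference, BN-P4 minus HSD-P4, on the vertical axis. The 381 genes called higher in BN are blue and the 519 called lower are orange, and the widest differences, such as Fam111a at -8.61, lie below 0.

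The genes furthest below their HSD level in BN encode unrelated proteins. Fam111a, at chr1:236163691-236179257 in build Rnor_5.0 and known as a serine protease of the nucleus, stood at 202, 119 and 459.6 CPM in the HSD libraries and 0.637, 0.722 and 0.632 CPM in the BN libraries. The groups lay far apart although the HSD values spread widely (log2 -8.61 ± 1.42, adjusted p = 0.00635). Car4, the membrane-bound carbonic anhydrase 4, stood at 7.65, 13.9 and 4.07 CPM in the HSD libraries and 0.0579, 0.131 and 0.105 CPM in the BN libraries, and the BN values rested on 1, 2 and 2 reads. Every HSD library was above every BN library (log2 -6.35 ± 0.70, adjusted p = 0.00018). Trpm8, the cold- and menthol-gated cation channel, stood at 10.8, 10.7 and 11.3 CPM in the HSD libraries and 0.637, 0.459 and 0.369 CPM in the BN libraries. The HSD values for Trpm8 were nearly equal to one another (log2 -4.47 ± 0.38, adjusted p = 1.98e-05). Hbb-b1, a beta-globin gene, stood at 44.9, 42.8 and 30.8 CPM in the HSD libraries and 1.101, 2.16 and 2.95 CPM in the BN libraries, again without overlap (log2 -4.24 ± 0.30, adjusted p = 3.58e-06). Ces1d, a carboxylesterase that splits esters of lipids and drugs, stood at 70.3, 140.3 and 136 CPM in the HSD libraries and 7.65, 11.7 and 6.38 CPM in the BN libraries. Each HSD value of Ces1d was at least several times each BN value (log2 -3.76 ± 0.28, adjusted p = 5.08e-06).

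Genes of metabolism, transport and the cell surface followed among the 12 named genes lowest in BN. Lao1, an L-amino acid oxidase, stood at 7.305, 6.05 and 5.36 CPM in the HSD libraries and 0.985, 0.328 and 0.422 CPM in the BN libraries (log2 -3.40 ± 0.43, adjusted p = 0.000486). Slc13a3, the sodium-coupled dicarboxylate transporter, stood at 9.04, 10.004 and 8.54 CPM in the HSD libraries and 1.101, 1.12 and 1.26 CPM in the BN libraries (log2 -2.98 ± 0.31, adjusted p = 0.00011). Ckmt1b, a mitochondrial creatine kinase, stood at 5.304, 9.18 and 5.07 CPM in the HSD libraries and 1.39, 0.59 and 1.11 CPM in the BN libraries (log2 -2.65 ± 0.43, adjusted p = 0.0036). None of these 3 genes had overlapping groups. Ly6g6e, a surface protein gene within the histocompatibility region, stood at 15.8, 15.9 and 6.42 CPM in the HSD libraries and 1.39, 0.787 and 1.42 CPM in the BN libraries (log2 -3.37 ± 0.44, adjusted p = 0.000671). Igsf11, an adhesion molecule of the immunoglobulin superfamily, stood at 180.3, 216 and 341 CPM in the HSD libraries and 22.6, 27.4 and 26.2 CPM in the BN libraries (log2 -3.28 ± 0.21, adjusted p = 1.23e-06), but 92.7% of its reads lay in introns and its call was lost on exon reads. RT1-CE3 and RT1-CE5 complete the 12 and are described with the RT1 genes.

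The genes furthest above their HSD level in BN came from many families as well. Tmem231, a protein of the transition zone of cilia, stood at 4.0001, 5.497 and 3.48 CPM in the HSD libraries and 33.3, 55.3 and 38.1 CPM in the BN libraries (log2 3.28 ± 0.22, adjusted p = 1.90e-06). Rbm46, an RNA-binding protein of the germ line, stood at 4.26, 4.01 and 5.89 CPM in the HSD libraries and 30.8, 29.8 and 25.9 CPM in the BN libraries (log2 2.60 ± 0.16, adjusted p = 1.23e-06). Hfm1, a helicase of meiosis, stood at 2.35, 1.81 and 3.2996 CPM in the HSD libraries and 18.01, 19.02 and 16.3 CPM in the BN libraries (log2 2.83 ± 0.24, adjusted p = 2.03e-05). For all 3 the BN values lay clear of the HSD values, yet 87.3%, 62.1% and 74.5% of the reads lay in introns, and on exon reads the call was lost for Tmem231 only. Mab21l3 stood at 3.304, 4.89 and 5.48 CPM in the HSD libraries and 28.4, 24.01 and 30.04 CPM in the BN libraries (log2 2.57 ± 0.44, adjusted p = 0.00452). Cdsn, corneodesmosin of keratinized epithelia, stood at 4.52, 4.95 and 3.24 CPM in the HSD libraries and 18.6, 22.3 and 23.6 CPM in the BN libraries (log2 2.34 ± 0.19, adjusted p = 1.22e-05). THEGL stood at 1.57, 0.879 and 1.24 CPM in the HSD libraries and 6.08, 5.38 and 5.797 CPM in the BN libraries (log2 2.25 ± 0.24, adjusted p = 0.000136). Agbl4_2, a gene model named after a cytosolic carboxypeptidase, had 2 reads in all HSD libraries together and 261 in the BN libraries, a depth-corrected ratio of 118 (95% interval 32.4 to 982, counting error only). The HSD libraries were thus at or near 0 reads for Agbl4_2 while every BN library had 4.87, 5.97 and 4.53 CPM. Aoc1, the diamine oxidase that degrades histamine, stood at 0.174, 4.95 and 0.589 CPM in the HSD libraries and 16.1, 13.4 and 17.5 CPM in the BN libraries (log2 2.94 ± 0.71, adjusted p = 0.0309), with HSD replicate 2 well above the other HSD libraries. Leaving out single libraries ended the Aoc1 call, with an edgeR adjusted p of up to 0.111 for Aoc1 without HSD-P4 replicate 3.

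Intron reads carried several of the genes highest in BN. Slc35f3, a thiamine transporter, stood at 1.403 ± 0.373 CPM in HSD and 8.35 ± 1.704 CPM in BN with 82.7% intron reads. Scg3, secretogranin 3 of secretory granules, stood at 2.597 ± 1.91 CPM in HSD and 14.8 ± 1.27 CPM in BN with 90.1% intron reads. Vom2r37, a vomeronasal receptor gene, stood at 3.83 ± 1.495 CPM in HSD and 20.7 ± 0.127 CPM in BN with 99.4% intron reads. Nlrc3, a negative regulator of immune signalling, stood at 1.4002 ± 0.308 CPM in HSD and 6.75 ± 1.08 CPM in BN with 79.4% intron reads. These 4 were called on total gene reads. On exon reads Slc35f3, Scg3 and Nlrc3 lost the call, and no result is given for Vom2r37. Smlr1 and Arsj, which had some of the widest gaps in CPM among genes higher in BN, stood at 295 ± 24.1 CPM in HSD and 436 ± 73.3 CPM in BN and at 442 ± 55.4 CPM in HSD and 638 ± 80.4 CPM in BN, with nearly all reads in introns. On exon reads Arsj was not called, and no result is given for Smlr1. The edgeR adjusted p with 1 library left out was at most 0.0731 for Smlr1 and 0.0892 for Arsj without BN-P4 replicate 2. Among the 900 called genes 26.6% had more intron than exon reads, against 22.6% of the tested genes, and 566 genes were called when exon reads alone were counted.

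**Figure D2:**
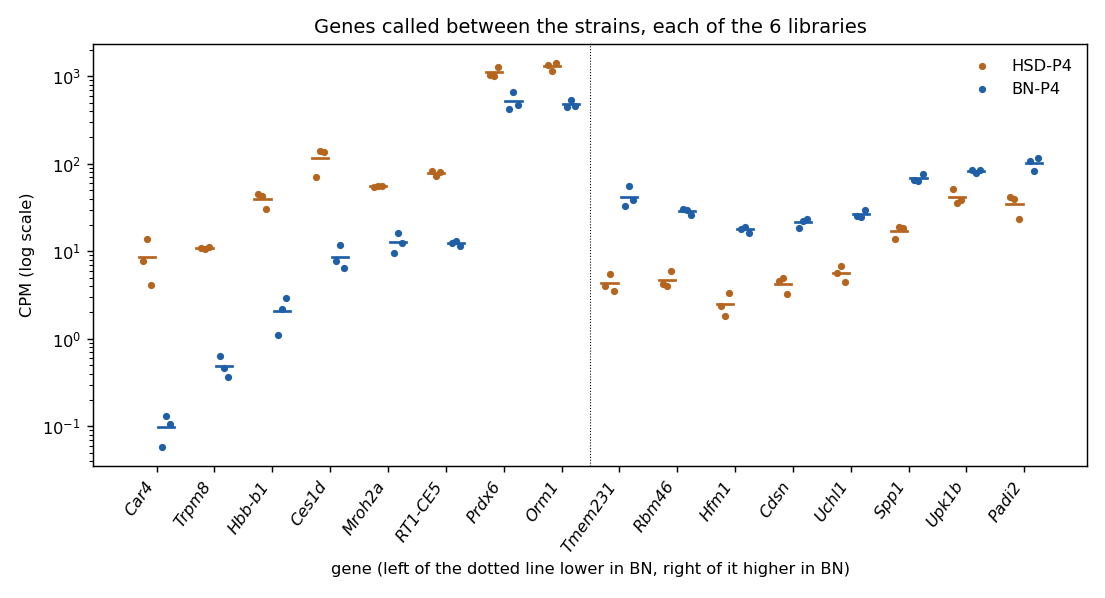
Each point is the level of a gene in 1 library in CPM on a log scale, with HSD-P4 in orange and BN-P4 in blue, and each bar is the mean of 3 libraries. The genes were picked among those called on these same values. For the 8 genes left of the dotted line every HSD point lies above every BN point, and for the 8 right of it every BN point lies above every HSD point.

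Reads that can be placed at several loci were checked by counting unique reads only. Of the 900 genes, 859 were also called on unique reads, where 947 of 15304 tested genes (6.19%) were called. Fewer unique than multiply placed reads were found for 53 of the 900 (5.89%), near the 5.41% of all tested genes. Copies of ribosomal protein genes led these 53: Rps10l1 stood at 104, 128 and 183 CPM in the HSD libraries and 8.23, 10.9 and 8.38 CPM in the BN libraries with 37.3% unique reads (log2 -3.92 ± 0.21, adjusted p = 2.98e-07), and Rpl6_1 at 148, 116 and 127 CPM in the HSD libraries and 13.8, 13.6 and 12.1 CPM in the BN libraries with 46.4% (log2 -3.31 ± 0.11, adjusted p = 6.21e-09). Both were also called on unique reads, and for neither did the strains overlap. They resemble the ordinary ribosomal protein genes in sequence, so the locus their reads come from is uncertain. Nek10, a kinase of ciliated cells, had 48.9% unique and 95.6% intron reads (log2 -3.25 ± 0.27, adjusted p = 1.31e-05), and Ric3, a chaperone of acetylcholine receptors, had 46.9% unique and 99.5% intron reads (log2 -2.33 ± 0.22, adjusted p = 4.44e-05). In the other direction Ctnna2, an alpha-catenin of neurons, was higher in BN with 36.8% unique reads (log2 1.63 ± 0.27, adjusted p = 0.00351). Add2, a subunit of the membrane skeleton protein adducin, had 2.29% unique reads and lost its call on them (log2 1.14 ± 0.20, adjusted p = 0.00538), as did Lrrc23 with 21.8% (log2 0.78 ± 0.13, adjusted p = 0.00327). Thumpd1, an adaptor in the acetylation of transfer RNA, had 47.4% (log2 0.77 ± 0.12, adjusted p = 0.00327) and Kcnip2, a subunit of potassium channels, had 49.7% (log2 0.84 ± 0.20, adjusted p = 0.0256). Without a single library the adjusted p in edgeR rose to as much as 0.115 for Kcnip2 without BN-P4 replicate 1.

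Of 43 tested genes of the RT1 complex and antigen presentation, 11 were lower and 1 was higher in BN, where 3.31% and 2.43% of all tested genes were, and their median difference was -0.44 against -0.01 for all tested genes. The classical class I gene RT1-A2 stood at 453, 498 and 308 CPM in the HSD libraries and 86.9, 112 and 94.1 CPM in the BN libraries. Every HSD value exceeded every BN value (log2 -2.10 ± 0.23, adjusted p = 0.000175). Of the class I genes of the C/E region, RT1-CE5 stood at 83.4, 72.7 and 81.02 CPM in the HSD libraries and 12.4, 13.2 and 11.4 CPM in the BN libraries (log2 -2.68 ± 0.20, adjusted p = 5.16e-06) and RT1-CE3 at 25.2, 30.6 and 22.5 CPM in the HSD libraries and 4.46, 3.805 and 3.43 CPM in the BN libraries (log2 -2.74 ± 0.16, adjusted p = 8.60e-07). RT1-CE7 stood at 263, 255 and 192 CPM in the HSD libraries and 68.5, 75.4 and 70.4 CPM in the BN libraries (log2 -1.73 ± 0.16, adjusted p = 3.10e-05). RT1-CE1 (61.1 ± 6.72 CPM in HSD and 25.9 ± 1.24 CPM in BN) and RT1-CE4 (24.9 ± 5.88 CPM in HSD and 10.02 ± 0.0543 CPM in BN) were also lower, with -1.24 ± 0.10 and -1.31 ± 0.24. The nonclassical genes were split: RT1-N2 (-1.44 ± 0.30) and RT1-T24-4 (-0.69 ± 0.13) were lower, while RT1-T24-1 was higher at 6.26, 8.52 and 11.3 CPM in the HSD libraries and 19.9, 21.2 and 14.1 CPM in the BN libraries (log2 1.07 ± 0.23, adjusted p = 0.0187). The class II gene RT1-Bb, a beta chain, stood at 197, 222 and 84.8 CPM in the HSD libraries and 42.98, 37.4 and 48.8 CPM in the BN libraries (log2 -1.96 ± 0.32, adjusted p = 0.00327). Psmb8, a subunit of the immunoproteasome that cuts peptides for presentation, stood at 59.6 ± 3.89 CPM in HSD and 31.7 ± 4.27 CPM in BN (log2 -0.91 ± 0.21, adjusted p = 0.0216), and Ctss, the protease that trims the class II invariant chain, at 55.5 ± 11.3 CPM in HSD and 35.2 ± 1.64 CPM in BN (log2 -0.66 ± 0.16, adjusted p = 0.0356). With 1 library less, the adjusted p in edgeR reached 0.0775 for RT1-N2, 0.0947 for RT1-T24-1, 0.102 for Psmb8 and 0.102 for Ctss without BN-P4 replicate 1.

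RT1 class I genes are near copies of one another and differ between strains, and 4 of the 33 tested RT1 genes on chromosome 20 had fewer unique than multiply placed reads. The unique share was 94.9% for RT1-A2, 96.6% for RT1-CE5 and 76.6% for RT1-CE3, and all 3 were called on unique reads. Reads of both strains were placed on a genome made from BN, and the part of allele differences in read placement was not tested. The lower calls numbered 8 to 12 when single libraries were left out, the fewest without BN-P4 replicate 1 and without BN-P4 replicate 3. RT1-T24-1 had 91.7% intron reads and was not called on exon reads.

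The promoter windows of the 3 RT1 genes with the widest differences and a RefSeq window are shown because class I promoters share regulatory elements. They are from RefSeq, build GRCr8, 250 bases before to 50 after the start, written 5′ to 3′ in the direction of transcription. Capitals mark the inverted CCAAT box (ATTGG, or CCAAT on the other strand) and, in RT1-A2, a match to an NF-kappaB motif, spelled GGGGA, then NTN, then CCC.
RT1-A2, chr20:4872621-4872920, plus strand: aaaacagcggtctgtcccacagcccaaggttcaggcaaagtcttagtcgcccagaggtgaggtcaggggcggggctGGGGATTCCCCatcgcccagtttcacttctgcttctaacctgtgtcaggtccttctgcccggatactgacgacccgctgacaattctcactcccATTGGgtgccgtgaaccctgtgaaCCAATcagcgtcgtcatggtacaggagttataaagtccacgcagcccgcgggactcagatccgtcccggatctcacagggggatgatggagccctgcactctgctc
RT1-CE5, chr20:3484041-3484340, minus strand: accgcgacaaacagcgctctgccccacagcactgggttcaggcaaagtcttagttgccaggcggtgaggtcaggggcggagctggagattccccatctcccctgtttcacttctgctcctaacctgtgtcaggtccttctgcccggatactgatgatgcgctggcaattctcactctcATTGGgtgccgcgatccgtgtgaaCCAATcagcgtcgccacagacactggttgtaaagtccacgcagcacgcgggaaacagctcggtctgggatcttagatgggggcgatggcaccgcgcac
RT1-CE3, chr20:3525109-3525408, minus strand: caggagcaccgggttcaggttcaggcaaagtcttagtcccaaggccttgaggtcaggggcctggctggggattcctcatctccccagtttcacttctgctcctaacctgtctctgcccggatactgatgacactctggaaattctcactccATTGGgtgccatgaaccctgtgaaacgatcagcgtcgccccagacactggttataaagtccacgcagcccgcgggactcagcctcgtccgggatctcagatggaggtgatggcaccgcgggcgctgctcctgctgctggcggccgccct

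Both motifs were searched on both strands in these windows. ATTGG began 80 bases before the start in RT1-A2, 72 bases before it in RT1-CE5 and 99 bases before it in RT1-CE3. A second copy on the other strand lay in RT1-A2 and RT1-CE5, at 56 to 52 and 48 to 44 bases before the start, and was not found in RT1-CE3. The NF-kappaB motif matched in RT1-A2 only, at 174 to 164 bases before the start. Of 33469 rat promoter windows of the same length, 37.5% hold ATTGG and 0.365% hold the NF-kappaB motif as spelled above. The windows are those of the reference and not of HSD animals, and a match describes letters, not a bound site.

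Of 25 tested markers of T and NK cells, 4 were lower and 0 higher in BN, where 3.31% of all tested genes were lower. A difference below 0 was found for 23 of the 25, called or not, and the median difference was -0.79. Cd8a, a chain of the CD8 co-receptor of cytotoxic T cells and some NK cells, stood at 37.4, 33.9 and 43.2 CPM in the HSD libraries and 7.704, 9.18 and 6.27 CPM in the BN libraries. The HSD values were several times the BN values (log2 -2.31 ± 0.23, adjusted p = 8.68e-05). Ccl5, a chemokine made by T cells, stood at 6.78, 13.8 and 7.78 CPM in the HSD libraries and 3.65, 3.87 and 3.58 CPM in the BN libraries (log2 -1.36 ± 0.27, adjusted p = 0.0104). Gzmm, a granzyme of NK cells, stood at 2.78, 5.22 and 4.01 CPM in the HSD libraries and 1.39, 1.71 and 1.84 CPM in the BN libraries (log2 -1.29 ± 0.31, adjusted p = 0.0289), and Lck, the kinase of T-cell receptor signalling, at 5.304, 5.06 and 4.95 CPM in the HSD libraries and 2.896, 3.48 and 3.16 CPM in the BN libraries (log2 -0.68 ± 0.17, adjusted p = 0.032). The summed level of the list ran between 133 and 149.7 CPM across HSD libraries and between 79.1 and 81.6 CPM across BN libraries. The lower calls numbered 2 without BN-P4 replicate 1 and 2 without BN-P4 replicate 3. The adjusted p in edgeR then came to 0.126 for Lck and 0.125 for Gzmm without BN-P4 replicate 1. In bulk tissue, fewer cells of a type and less RNA per cell cannot be told apart, and this holds for each marker list.

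Of 9 tested red cell genes, 4 were lower and 0 higher in BN (44.4%, where 3.31% of all tested genes were lower). These were Hbb-b1, described above, Hba1, Hba2 and Alas2. Hba1, an alpha-globin gene, stood at 282, 256 and 145 CPM in the HSD libraries and 24.2, 33.8 and 77.3 CPM in the BN libraries (log2 -2.33 ± 0.41, adjusted p = 0.00538). Hba2 stood at 114, 112 and 60.9 CPM in the HSD libraries and 10.02, 11.9 and 31.2 CPM in the BN libraries (log2 -2.43 ± 0.41, adjusted p = 0.00442). Alas2, the first enzyme of heme synthesis in red cells, stood at 3.39, 3.13 and 1.59 CPM in the HSD libraries and 0.232, 0.656 and 0.843 CPM in the BN libraries (log2 -2.19 ± 0.42, adjusted p = 0.00901). The list summed to 648 to 683 CPM in HSD and 169.7 to 369 CPM in BN. The count of lower genes was 4 or 5 in all 25 alternatives. How much blood each uterus held was not recorded, and its part in the result was not tested.

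Of 10 tested mast cell markers, 5 were higher and 0 lower in BN, where 2.43% of all tested genes were higher. Mcpt2, a mast cell protease of mucosal mast cells, stood at 0.087, 0.44 and 0.412 CPM in the HSD libraries and 3.07, 2.43 and 1.63 CPM in the BN libraries (log2 2.79 ± 0.61, adjusted p = 0.0189). Fcer1a and Ms4a2, the alpha and beta chains of the high-affinity receptor for immunoglobulin E, stood at 0.311 ± 0.165 CPM in HSD and 1.63 ± 0.0529 CPM in BN and at 1.15 ± 0.214 CPM in HSD and 3.25 ± 0.397 CPM in BN (2.33 ± 0.44 and 1.51 ± 0.26). Cpa3, mast cell carboxypeptidase, stood at 3.92 ± 0.524 CPM in HSD and 7.56 ± 0.0671 CPM in BN (log2 0.95 ± 0.22, adjusted p = 0.0256), and Kit, the stem cell factor receptor, at 7.27 ± 0.866 CPM in HSD and 10.96 ± 0.048 CPM in BN (log2 0.60 ± 0.14, adjusted p = 0.0264). The summed list did not separate the strains, with 317 to 342 CPM in HSD and 306 to 322 CPM in BN, and Mcpt1 and Mcpt4 had no reads. The higher calls numbered 2 without BN-P4 replicate 1, and 3 without any 1 of BN-P4 replicate 2, BN-P4 replicate 3, HSD-P4 replicate 1 or HSD-P4 replicate 3. Of the edgeR adjusted p values in those fits, the highest were 0.0844 for Mcpt2, 0.0993 for Cpa3 and 0.112 for Kit without BN-P4 replicate 1.

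The other leukocyte lists held 0 to 2 calls each in edgeR. Of 18 macrophage and dendritic cell markers, 2 were called (11.1%, where 5.73% of all tested genes were), while DESeq2 called 5 and voom 2. Lyz2, lysozyme, was lower in BN at 421, 346 and 563 CPM in the HSD libraries and 211, 256 and 241 CPM in the BN libraries (log2 -0.91 ± 0.22, adjusted p = 0.0289). Itgam, the CD11b integrin chain, was higher (log2 0.63 ± 0.10, adjusted p = 0.00413), with 97.6% intron reads and no call on exon reads. Siglec5, listed with eosinophils, stood at 5.304, 2.199 and 1.53 CPM in the HSD libraries and 9.79, 8.46 and 9.33 CPM in the BN libraries (log2 1.67 ± 0.34, adjusted p = 0.0125). Only 3 of its list could be tested, of which it was the 1 called (33.3%). In edgeR 0 of 8 B and plasma cell markers and 0 of 6 neutrophil markers were called, where 0 and 2 had an unadjusted p below 0.05 and DESeq2 and voom each called 0 and 1. Among structural markers, 0 of 17 smooth muscle and 0 of 14 stromal fibroblast genes were called in edgeR, with medians of 0.19 and 0.15. Unadjusted p was below 0.05 for 3 and 2 of them, DESeq2 called 0 of either and voom 0 and 1. The summed levels of both structural lists overlapped between the strains. Single leave-outs brought the adjusted p to at most 0.123 for Lyz2 and 0.059 for Siglec5 without BN-P4 replicate 1.

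**Figure D3:**
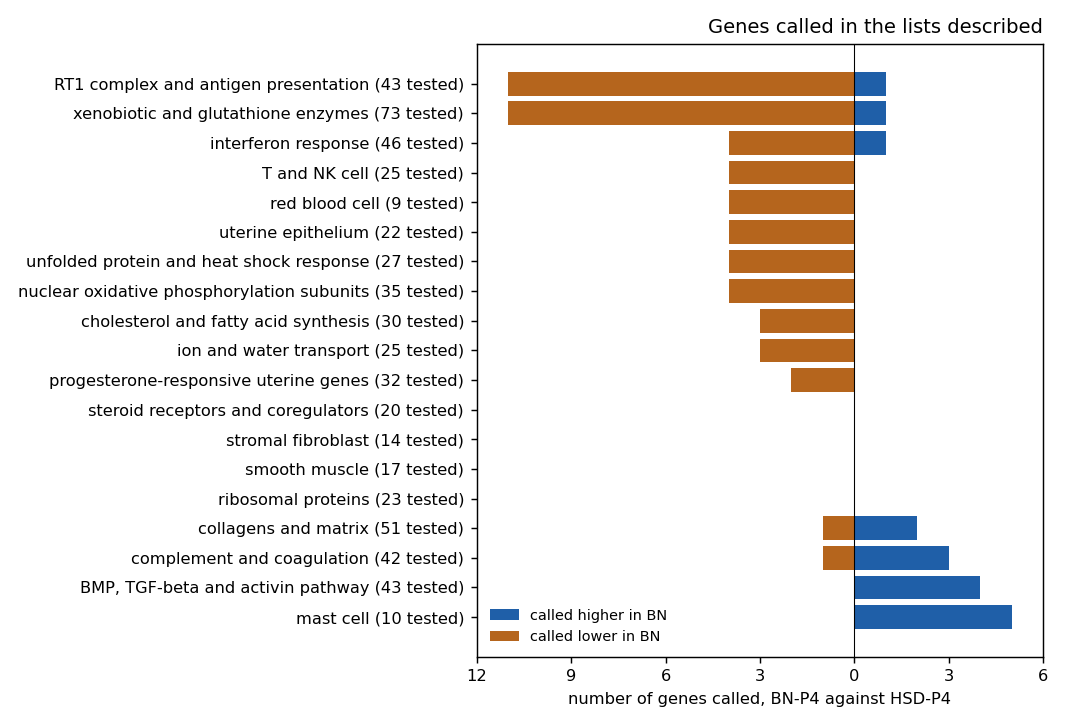
Bars give the number of genes of each list called between BN-P4 and HSD-P4, with genes lower in BN to the left in orange and genes higher in BN to the right in blue, and the number tested beside each name. The RT1 and the xenobiotic lists reach 11 lower genes each, and the mast cell list 5 higher genes.

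Enzymes that process foreign compounds, lipids and peroxides were mostly lower in BN where they were called. Of 73 tested xenobiotic and glutathione genes, 11 were lower and 1 was higher in BN, where 3.31% and 2.43% of all tested genes were. The median was -0.15. Besides Ces1d, Cyp2e1, the ethanol-inducible cytochrome P450, stood at 6.61, 7.53 and 12.7 CPM in the HSD libraries and 1.62, 1.38 and 1.95 CPM in the BN libraries (log2 -2.43 ± 0.43, adjusted p = 0.00605). Aox1, aldehyde oxidase, stood at 60.8, 60.1 and 52.7 CPM in the HSD libraries and 21.8, 23.5 and 20.1 CPM in the BN libraries (log2 -1.41 ± 0.11, adjusted p = 1.19e-05). For both the strains did not overlap. Mgst2, a microsomal glutathione transferase, stood at 65.3 ± 29.4 CPM in HSD and 23.3 ± 4.17 CPM in BN (log2 -1.48 ± 0.30, adjusted p = 0.0127), and Gpx1, glutathione peroxidase 1, at 166 ± 25.99 CPM in HSD and 97.3 ± 11.6 CPM in BN (log2 -0.77 ± 0.13, adjusted p = 0.00436). Cyp2j10 (-1.06 ± 0.21), Sult1d1, a sulfotransferase (17.8 ± 4.13 CPM in HSD and 8.93 ± 0.671 CPM in BN), Ggt1, the glutathione-cleaving gamma-glutamyltransferase (-1.16 ± 0.31), Aldh3a1, an aldehyde dehydrogenase (-1.73 ± 0.41), and Abcb1a, the P-glycoprotein drug pump (-0.58 ± 0.15), were lower as well. Fmo5 was the gene higher in BN (0.63 ± 0.17). Prdx6, a peroxiredoxin that is not in the list, had one of the widest gaps in CPM at 1029, 1018 and 1281 CPM in the HSD libraries and 425, 655 and 473 CPM in the BN libraries (log2 -1.10 ± 0.15, adjusted p = 0.00109). The 11 lower calls became 6 without BN-P4 replicate 1 or BN-P4 replicate 3 and 8 without HSD-P4 replicate 3. Among the members the edgeR adjusted p reached 0.055 for Cyp2j10, 0.158 for Aldh3a1 and 0.163 for Fmo5 without BN-P4 replicate 3, and 0.0731 for Mgst2, 0.171 for Ggt1 and 0.0736 for Sult1d1 without BN-P4 replicate 1, and 0.095 for Abcb1a without HSD-P4 replicate 3.

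Steroid receptors showed no call between the strains. The progesterone receptor gene Pgr stood at 272, 244 and 236 CPM in the HSD libraries and 305, 285 and 267 CPM in the BN libraries (log2 0.19 ± 0.10, adjusted p = 0.285), and the estrogen receptor gene Esr1 at 87.2, 80.4 and 78.5 CPM in the HSD libraries and 96.4, 109 and 85.3 CPM in the BN libraries (log2 0.24 ± 0.10, adjusted p = 0.185). Of 20 tested steroid receptor and coregulator genes 0 were called in edgeR, with a median of 0.10, while 4 had an unadjusted p below 0.05, and DESeq2 called 1 and voom 3. Of 32 tested progesterone-responsive genes, 2 were lower in BN and 0 higher (6.25% called, near the 5.73% of all tested genes). Their median was 0.01. Sgk1, a kinase that acts on sodium channels, stood at 84.1, 72.6 and 68.997 CPM in the HSD libraries and 40.8, 54.4 and 48.5 CPM in the BN libraries (log2 -0.65 ± 0.13, adjusted p = 0.0122). Hsd11b2, which inactivates glucocorticoids, stood at 163, 154 and 135 CPM in the HSD libraries and 95.4, 89.9 and 127 CPM in the BN libraries (log2 -0.53 ± 0.14, adjusted p = 0.0427). Among the uncalled members, Calca, which encodes calcitonin and CGRP, stood at 3950.4 ± 1549 CPM in HSD and 2558 ± 194 CPM in BN (log2 -0.63 ± 0.44, adjusted p = 0.433) and Fkbp5, a co-chaperone of steroid receptors, at 103 ± 13.3 CPM in HSD and 80.9 ± 2.03 CPM in BN (log2 -0.35 ± 0.12, adjusted p = 0.107). Of the 2 calls, the leave-out fits of edgeR gave an adjusted p of up to 0.0553 for Sgk1 and 0.16 for Hsd11b2 without BN-P4 replicate 1. The list then held 0 calls without BN-P4 replicate 1.

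A second list holds the 20 genes with the largest reported progesterone changes in these same libraries. It was chosen on these samples and is not independent evidence of a direction. Of the 20, 2 were lower in BN (Orm1 and Npy) and 2 higher (Mab21l3 and Hephl1), where 3.31% and 2.43% of all tested genes were. Orm1, the acute-phase protein orosomucoid, stood at 1353, 1135 and 1412 CPM in the HSD libraries and 443, 542 and 453 CPM in the BN libraries (log2 -1.44 ± 0.18, adjusted p = 0.000467). Under oil Orm1 was near 0 in both strains (0.677 ± 0.129 CPM in HSD and 0.898 ± 0.542 CPM in BN). Npy, neuropeptide Y, stood at 109, 49.7 and 69.4 CPM in the HSD libraries and 15.6, 20.5 and 20.2 CPM in the BN libraries (log2 -2.01 ± 0.27, adjusted p = 0.000774) with 23.3% unique reads, and under oil at 0.544 ± 0.292 CPM in HSD and 0.766 ± 0.206 CPM in BN. Mab21l3, described above, stood at 143 ± 91.3 CPM in HSD and 125 ± 27.5 CPM in BN under oil. Of the 20 genes, 0 were called for the strain difference under progesterone minus that under oil. Hephl1, a ferroxidase-like protein, stood at 1.57, 0.989 and 0.707 CPM in the HSD libraries and 2.43, 3.35 and 1.95 CPM in the BN libraries (log2 1.28 ± 0.33, adjusted p = 0.0414). For this gene the adjusted p of edgeR reached 0.12 for Hephl1 without HSD-P4 replicate 3.

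The Orm1 promoter window is shown because glucocorticoid and progesterone receptors bind the same class of DNA element, and the rat Orm1 gene is a textbook glucocorticoid-responsive gene of the liver. Capitals mark a match to the hormone response element, spelled GNACA, then NNN, then TGTNC, from 130 to 118 bases before the start (RefSeq, build GRCr8).
Orm1, chr5:81788259-81788558, plus strand: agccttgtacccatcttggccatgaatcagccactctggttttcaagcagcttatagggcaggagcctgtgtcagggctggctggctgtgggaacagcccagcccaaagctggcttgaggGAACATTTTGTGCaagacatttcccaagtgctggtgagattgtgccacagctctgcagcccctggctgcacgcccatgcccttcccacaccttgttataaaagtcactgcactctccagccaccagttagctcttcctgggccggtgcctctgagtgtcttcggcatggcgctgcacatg
Searched on both strands, this motif was in 0.439% of the 33469 windows. It describes the reference letters only, and whether a receptor occupies it in uterus was not measured.

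Epithelial genes were lower in BN where called. Of 22 markers of uterine epithelium, 4 were lower and 0 higher, where 3.31% of all tested genes were lower. The median was -0.24. Under oil 7 of these markers were called lower and 0 higher in BN, with a median of -0.48. Krt7, a keratin of simple epithelia, stood at 37.6, 45.7 and 34.1 CPM in the HSD libraries and 19.8, 18.5 and 22.2 CPM in the BN libraries (log2 -0.96 ± 0.17, adjusted p = 0.00549), and Krt18 at 87.9, 77.2 and 83.9 CPM in the HSD libraries and 48.1, 63.6 and 51.3 CPM in the BN libraries (log2 -0.61 ± 0.13, adjusted p = 0.0179). The strains did not overlap for either keratin. Ehf, an epithelial transcription factor, stood at 68.1, 42.5 and 92.2 CPM in the HSD libraries and 31.5, 39.03 and 28.9 CPM in the BN libraries (log2 -1.03 ± 0.22, adjusted p = 0.0184), and Rab25, a vesicle-traffic protein of epithelia, at 38.7, 33.97 and 37.3 CPM in the HSD libraries and 20.4, 30.2 and 25.7 CPM in the BN libraries (log2 -0.53 ± 0.13, adjusted p = 0.0367). Of 25 ion and water transport genes 3 were lower and 0 higher under progesterone, and 6 were lower and 1 was higher under oil. Besides Car4 the genes lower under progesterone were Aqp5, a water channel, at 377, 339 and 302 CPM in the HSD libraries and 194, 244 and 210.0 CPM in the BN libraries (log2 -0.65 ± 0.14, adjusted p = 0.0159), and Scnn1g, the gamma subunit of the epithelial sodium channel, at 1.65, 1.87 and 0.766 CPM in the HSD libraries and 0.405, 0.131 and 0.211 CPM in the BN libraries (log2 -2.46 ± 0.52, adjusted p = 0.0159). The summed epithelial markers were 1820.3 to 1895 CPM in HSD and 1401 to 1768 CPM in BN, and their part in the transport calls was not tested. Without BN-P4 replicate 1 and without BN-P4 replicate 3 the epithelial list held 1 call each. Leave-one-out values of the edgeR adjusted p came to 0.0844 for Krt18, 0.122 for Rab25 and 0.0764 for Aqp5 without BN-P4 replicate 1, and 0.085 for Ehf and 0.0733 for Scnn1g without BN-P4 replicate 3.

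Genes of the endoplasmic reticulum and of lipid synthesis were lower in BN where called. Of 27 unfolded protein and heat shock genes, 4 were lower and 0 higher in BN, where 3.31% of all tested genes were lower. A difference below 0 was found for 23 of the 27, called or not. Creld2, a secreted protein induced by reticulum stress, stood at 178, 128 and 187 CPM in the HSD libraries and 71.2, 76.8 and 73.7 CPM in the BN libraries (log2 -1.15 ± 0.14, adjusted p = 0.000318). MANF, a neurotrophic factor of the reticulum, stood at 236, 159 and 245 CPM in the HSD libraries and 129, 128 and 136 CPM in the BN libraries (log2 -0.70 ± 0.14, adjusted p = 0.0117). Both showed lower values in every BN library. Sdf2l1 (-1.06 ± 0.23) and Dnajb11 (-0.46 ± 0.10), partners of the chaperone BiP, were the other two. Of 30 cholesterol and fatty acid synthesis genes, 26 had a difference below 0, called or not. Among the 30, 3 genes were called lower (10.0%) and 0 higher. They were Idi1, an isomerase of the mevalonate pathway, at 338, 199 and 505 CPM in the HSD libraries and 121, 157 and 116 CPM in the BN libraries (log2 -1.40 ± 0.28, adjusted p = 0.0118), Fdps, which makes farnesyl diphosphate (-0.43 ± 0.10), and Scd, stearoyl-CoA desaturase, at 1772, 1849 and 1413 CPM in the HSD libraries and 1269.5, 1158 and 1211 CPM in the BN libraries (log2 -0.47 ± 0.12, adjusted p = 0.0387). The cholesterol list held 0 calls without BN-P4 replicate 1 or BN-P4 replicate 3 and 6 without HSD-P4 replicate 3, and the reticulum list held 1 without BN-P4 replicate 1. In such fits the edgeR adjusted p values were at most 0.0553 for MANF, 0.0879 for Sdf2l1, 0.0648 for Idi1 and 0.0961 for Fdps without BN-P4 replicate 1, and 0.0668 for Dnajb11 without HSD-P4 replicate 1, and 0.107 for Scd without BN-P4 replicate 3.

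Respiratory chain and ribosome genes gave small differences. Of 35 nuclear genes of oxidative phosphorylation, 4 were lower in BN and 0 higher in edgeR, where 3.31% of all tested genes were lower. DESeq2 called 10 of the 35 and voom 9. A difference below 0 was found for 34 of the 35, called or not, and the median was -0.36. Sdhb, a subunit of succinate dehydrogenase, stood at 161, 152 and 159 CPM in the HSD libraries and 120.5, 134 and 121 CPM in the BN libraries (log2 -0.33 ± 0.09, adjusted p = 0.0493). Cox5a (-0.36 ± 0.10), Cox5b (-0.59 ± 0.15) and Cox6a1 (-0.44 ± 0.10), subunits of cytochrome c oxidase, were the others. Of 23 ribosomal protein genes 0 were called in edgeR, 14 had an unadjusted p below 0.05, and DESeq2 called 6 and voom 4. All 23 had a difference below 0, and their median was -0.37. The median deviation of the list from the mean of the 6 libraries was 0.03, 0.05 and 0.44 in the HSD libraries. It was -0.37, 0.01 and -0.18 in the BN libraries, so the widest values were those of HSD replicate 3 and BN replicate 1. The 23 signs come from the same libraries and are not independent. With 1 library left out the list held 0 to 5 lower calls. Rpsa, the laminin receptor and ribosomal protein, was outside that list and lower at 1456, 1566 and 1839.7 CPM in the HSD libraries and 914, 1250.4 and 1015 CPM in the BN libraries (log2 -0.61 ± 0.15, adjusted p = 0.0289). ND3, a mitochondrially encoded subunit of complex I, stood at 1281, 737 and 1387 CPM in the HSD libraries and 609, 689 and 505 CPM in the BN libraries (log2 -0.92 ± 0.20, adjusted p = 0.0197). The oxidative phosphorylation list lay 0.33 above the mean of the libraries in HSD replicate 3, and without that library it held 1 call, without BN-P4 replicate 1 or 3 it held 0 and without HSD-P4 replicate 2 it held 10. The edgeR adjusted p of the members reached 0.152 for Sdhb, 0.126 for Cox5a, 0.123 for Cox5b, 0.109 for Cox6a1 and 0.123 for Rpsa without BN-P4 replicate 1, and 0.0919 for ND3 without BN-P4 replicate 3.

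Of 46 interferon response genes, 4 were lower and 1 was higher in BN, and 10.9% were called where 5.73% of all tested genes were. Oas2, an antiviral RNA sensor, stood at 7.91, 6.38 and 6.13 CPM in the HSD libraries and 3.71, 4.002 and 3.32 CPM in the BN libraries (log2 -0.88 ± 0.16, adjusted p = 0.00718), and Usp18, a brake on interferon signalling, at 16.7, 21.2 and 21.9 CPM in the HSD libraries and 9.79, 12.6 and 8.696 CPM in the BN libraries (log2 -0.95 ± 0.24, adjusted p = 0.0367). Ifit3 (-1.17 ± 0.30) and Dhx58 (-0.70 ± 0.17), further antiviral genes, were lower. Rsad2, the antiviral protein viperin, was higher at 13.8, 15.6 and 19.9 CPM in the HSD libraries and 28.1, 39.1 and 25.5 CPM in the BN libraries (log2 0.91 ± 0.22, adjusted p = 0.0309). The balance of this list turned in other analyses, with 4 higher and 1 lower calls with 1 surrogate variable and 2 higher and 1 lower with scaling by library size alone. The lower calls numbered 2 on exon reads and 9 in DESeq2. They numbered 1 to 8 with 1 library left out, the fewest without BN-P4 replicate 1 or BN-P4 replicate 3 and the most without HSD-Oil replicate 3. Under oil the list held 10 higher and 0 lower calls, and whether the list differed between treatments was not tested. Of 64 cytokine, chemokine and receptor genes, 3 were called (4.69%, where 5.73% of all tested genes were). Il17re, a receptor chain for interleukin 17C, was higher at 26.96, 26.3 and 25.7 CPM in the HSD libraries and 65.6, 82.4 and 78.3 CPM in the BN libraries (log2 1.52 ± 0.12, adjusted p = 1.31e-05). Il17rb, a receptor for interleukin 25, was lower at 110.0, 60.5 and 124 CPM in the HSD libraries and 44.5, 54.1 and 45.3 CPM in the BN libraries (log2 -1.03 ± 0.23, adjusted p = 0.0197), as was Ccl5. Leave-outs in edgeR gave adjusted p values of at most 0.166 for Ifit3 and 0.0916 for Il17rb without BN-P4 replicate 1, and 0.118 for Dhx58 and 0.137 for Usp18 without BN-P4 replicate 3, and 0.101 for Rsad2 without HSD-P4 replicate 1.

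Of 43 genes of the BMP, TGF-beta and activin pathway, 4 were higher and 0 lower in BN, where 2.43% of all tested genes were higher. Id4, an inhibitor of transcription factors downstream of BMP, stood at 47.5, 57.7 and 46.9 CPM in the HSD libraries and 77.3, 73.995 and 78.1 CPM in the BN libraries (log2 0.59 ± 0.11, adjusted p = 0.00822). Ltbp1, which holds latent TGF-beta in the matrix, stood at 163, 240.0 and 122 CPM in the HSD libraries and 416, 257 and 389 CPM in the BN libraries (log2 1.01 ± 0.26, adjusted p = 0.0427), and Tgfb2, a TGF-beta ligand, at 35.3, 40.3 and 29.8 CPM in the HSD libraries and 68.1, 45.001 and 49.9 CPM in the BN libraries (log2 0.63 ± 0.17, adjusted p = 0.0443). The groups lay close together for Ltbp1 and Tgfb2. Among 51 collagen and matrix genes, 2 were higher and 1 lower (5.88%, near the 5.73% of all tested genes). The higher calls numbered 7 without HSD-P4 replicate 2, 4 without BN-P4 replicate 2 and 1 without BN-P4 replicate 1. Spp1, osteopontin, stood at 13.7, 18.96 and 18.6 CPM in the HSD libraries and 64.5, 63.6 and 77.001 CPM in the BN libraries (log2 1.99 ± 0.31, adjusted p = 0.00252), and Col12a1, a fibril-associated collagen, at 285, 252 and 249.7 CPM in the HSD libraries and 722, 392 and 575 CPM in the BN libraries (log2 1.10 ± 0.21, adjusted p = 0.00876). Timp1, an inhibitor of matrix proteases, was lower at 34.3, 27.6 and 21.7 CPM in the HSD libraries and 18.9, 11.5 and 17.7 CPM in the BN libraries (log2 -0.79 ± 0.19, adjusted p = 0.0327). Of 43 growth factor genes (6.98% called), the receptors Egfr (0.49 ± 0.13) and Fgfr2 (0.45 ± 0.10) were higher. The ligand Igf1 was lower at 222, 140.0 and 282 CPM in the HSD libraries and 98.99, 133 and 92.9 CPM in the BN libraries (log2 -0.99 ± 0.21, adjusted p = 0.0159). The BMP list held 2 calls without BN-P4 replicate 1, BN-P4 replicate 3, HSD-P4 replicate 1 or HSD-P4 replicate 3. By gene, the edgeR adjusted p rose in leave-outs to 0.18 for Ltbp1, 0.235 for Tgfb2, 0.0565 for Col12a1, 0.145 for Egfr, 0.115 for Fgfr2 and 0.0778 for Igf1 without BN-P4 replicate 1, and 0.108 for Timp1 without HSD-P4 replicate 1.

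Of 42 complement and coagulation genes, 3 were higher and 1 was lower in BN (9.52%, where 5.73% of all tested genes were called). Serping1, the C1 inhibitor, stood at 135, 151 and 75.7 CPM in the HSD libraries and 281, 182 and 281 CPM in the BN libraries (log2 1.04 ± 0.23, adjusted p = 0.0188). Vwf, von Willebrand factor of endothelium, stood at 7.13, 12.6 and 3.24 CPM in the HSD libraries and 33.5, 19.7 and 34.7 CPM in the BN libraries (log2 1.93 ± 0.42, adjusted p = 0.0193). Serpine2, a thrombin inhibitor, was higher too (0.58 ± 0.13), and F10, coagulation factor X, was lower (-1.17 ± 0.31). Of 15 endothelial markers only Vwf was called, and of 11 nerve and Schwann cell markers only Uchl1, a ubiquitin hydrolase of neurons, at 5.65, 6.82 and 4.42 CPM in the HSD libraries and 25.5, 24.6 and 29.8 CPM in the BN libraries (log2 2.24 ± 0.20, adjusted p = 3.10e-05). Upk1b, a uroplakin listed with mesothelium, stood at 52.1, 35.9 and 38.1 CPM in the HSD libraries and 84.98, 79.2 and 84.2 CPM in the BN libraries (log2 0.98 ± 0.17, adjusted p = 0.00452). Of 13 adipocyte markers, 2 were higher and 2 lower (30.8% called). Lpl, lipoprotein lipase, stood at 154, 171 and 173 CPM in the HSD libraries and 318, 291 and 313 CPM in the BN libraries (log2 0.89 ± 0.09, adjusted p = 9.93e-05) and Cidec, a lipid droplet protein, was higher (2.32 ± 0.62). Adipoq, adiponectin, was lower at 31.7, 29.4 and 31.2 CPM in the HSD libraries and 15.1, 15.02 and 17.2 CPM in the BN libraries (log2 -0.96 ± 0.16, adjusted p = 0.00469), and Pnpla2, a triglyceride lipase, was lower (-0.69 ± 0.16). The 3 higher complement calls became 0 without BN-P4 replicate 1 or BN-P4 replicate 3. Values of the edgeR adjusted p with 1 library left out went up to 0.0975 for Serping1, 0.0828 for Vwf, 0.18 for F10 and 0.084 for Pnpla2 without BN-P4 replicate 1, and 0.104 for Serpine2 and 0.182 for Cidec without BN-P4 replicate 3.

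The estrogen, steroid, retinoid, prostaglandin, Wnt, myometrial and neuropeptide lists held 1 or 2 calls each, where 5.73% of all tested genes were called. Of 15 estrogen-responsive genes, 1 was higher and 1, Igf1, lower (13.3% called). Padi2, a peptidylarginine deiminase, was the higher one at 41.3, 39.3 and 23.3 CPM in the HSD libraries and 107, 82.7 and 115 CPM in the BN libraries (log2 1.56 ± 0.26, adjusted p = 0.00435). Of 20 steroid metabolism genes 2 were lower, Hsd11b2 and Hsd17b13, a hydroxysteroid dehydrogenase family member, which stood at 5.65, 5.61 and 9.01 CPM in the HSD libraries and 1.74, 3.08 and 3.004 CPM in the BN libraries (log2 -1.38 ± 0.26, adjusted p = 0.00885). The call among 21 retinoid genes (4.76%) was Rdh16, a retinol dehydrogenase, which was higher (1.15 ± 0.22). Of 25 prostaglandin pathway genes 2 were called. Ptgr1, a reductase that inactivates prostaglandins and leukotrienes, was higher (1.07 ± 0.20), and Pla2g5, a secreted phospholipase A2, was lower (-1.27 ± 0.21). The call among 41 Wnt pathway genes (2.44%) was Sfrp4, a secreted Wnt inhibitor, which was lower at 46.001, 40.8 and 28.3 CPM in the HSD libraries and 16.9, 14.9 and 16.5 CPM in the BN libraries (log2 -1.25 ± 0.20, adjusted p = 0.00356). Of 24 myometrial genes (8.33% called), Rgs5, a regulator of G-protein signalling in vessel walls, and Itpr1, the inositol trisphosphate receptor, were higher by 0.56 ± 0.12 and 0.56 ± 0.13. Of 30 neuropeptide and receptor genes (6.67% called), Ntsr1, a neurotensin receptor, was higher (1.76 ± 0.44) and Npy lower. Outside these lists, Ctsd, the lysosomal protease cathepsin D, had the widest gap in CPM of the lower genes, a measure that grows with transcript length and abundance, at 3453, 3388 and 3399 CPM in the HSD libraries and 2138, 2743 and 2335 CPM in the BN libraries (log2 -0.50 ± 0.12, adjusted p = 0.0318). One library less took the edgeR adjusted p to 0.105 for Rgs5, 0.112 for Itpr1, 0.178 for Ntsr1 and 0.125 for Ctsd without BN-P4 replicate 1.

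Called genes lay on all chromosomes. The share called ran from 2.91% on chromosome X to 7.48% on chromosome 16, and on chromosome 20, which holds the RT1 complex, it was 7.04% with 7 genes higher and 26 lower. Without the RT1 genes chromosome 20 held 6 higher and 17 lower calls. There were 9 runs of at least 3 neighbouring tested genes called in the same direction. The longest, of 4 genes, lay at chr9:94910377-95170098 (Rnor_5.0) and held Ugt1a2, a glucuronosyltransferase, Mroh2a, Hjurp, a histone chaperone of centromeres, and Trpm8. Mroh2a stood at 53.7, 56.2 and 56.1 CPM in the HSD libraries and 9.67, 16.2 and 12.3 CPM in the BN libraries (log2 -2.12 ± 0.27, adjusted p = 0.0005). Hjurp (-1.55 ± 0.24) and Ugt1a2 (-0.69 ± 0.11) were lower without overlap of the groups. A carboxylesterase run at chr19:26192035-26337106 held Cesl1 (-0.94 ± 0.11), Ces1e (-3.26 ± 0.47) and Ces1d (-3.76 ± 0.28). Beta-globin genes at chr1:175098756-175129363 and RT1-CE5, RT1-CE4 and RT1-CE3 at chr20:6968850-7019717 formed further runs of lower genes.

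Runs of genes higher in BN included Aoc1, the neighbouring Doxl2 of the same diamine oxidase family (2.96 ± 0.52) and Gpnmb, a transmembrane glycoprotein (0.80 ± 0.21), at chr4:143183686-143404102. Another held Ttll3, a tubulin ligase (0.96 ± 0.10), Rpusd3 (1.04 ± 0.22) and Cidec, and a further run Tenm3 (0.54 ± 0.13), Dctd, a nucleotide deaminase (0.66 ± 0.12), and Wwc2 (0.40 ± 0.09). Msh4 of meiotic recombination, Rabggtb, a Rab prenylation subunit, and Acadm, an enzyme of fat oxidation, were a run of lower genes on chromosome 2. In none of the 9 runs did neighbouring genes overlap. The kit does not mark strand, so reads of a gene and of an antisense partner cannot be told apart. Leaving out a library gave edgeR adjusted p values of up to 0.111 for Aoc1 without HSD-P4 replicate 3, and 0.185 for Gpnmb, 0.0759 for Rpusd3, 0.182 for Cidec and 0.117 for Wwc2 without BN-P4 replicate 3, and 0.174 for Tenm3, 0.087 for Msh4, 0.143 for Rabggtb and 0.129 for Acadm without BN-P4 replicate 1.

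The strain difference under progesterone was set beside that under oil, which shares no library with it. Under oil 893 genes (5.69%) were called between BN and HSD. Of the 900 called under progesterone, 391 (43.4%) were also called under oil in the same direction, 189 higher and 202 lower in BN, which is 43.8% of the oil calls, and 3 were called in opposite directions. The sign was the same under both treatments for 91.7% of the 900 and for 67.3% of all tested genes. Across genes the log2 differences correlated at Pearson r = 0.70 and Spearman rho = 0.50, a description over 15697 genes that are not independent replicates. Fam111a (61.01 ± 68.1 CPM in HSD and 0.514 ± 0.188 CPM in BN under oil), Car4 (7.698 ± 3.44 CPM in HSD and 0.181 ± 0.176 CPM in BN), Uchl1 (7.89 ± 2.03 CPM in HSD and 37.4 ± 4.62 CPM in BN) and Spp1 (6.06 ± 4.11 CPM in HSD and 26.8 ± 1.58 CPM in BN) differed under oil too. Of the 212 genes that kept their call under progesterone in every alternative, 148 were also called under oil in the same direction. Under oil the RT1 list held 7 lower and 0 higher calls, and the xenobiotic list 10 lower and 1 higher. The red cell list held 4 lower and 0 higher, and the mast cell list 4 higher and 0 lower. The T and NK cell list held 1 lower and 0 higher. The reticulum and oxidative phosphorylation lists held 0 calls under oil. Whether a list differed between treatments was not tested.

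**Figure D4:**
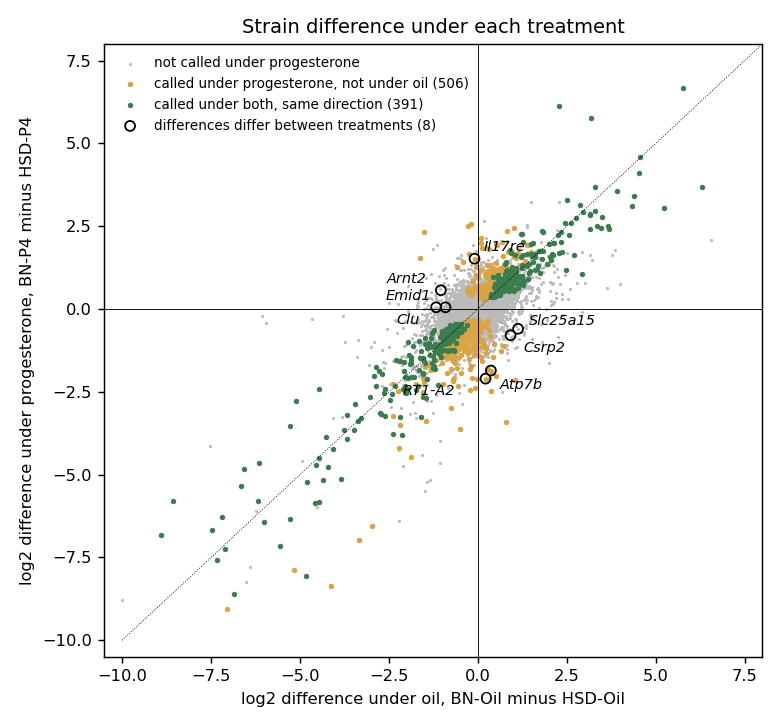
Each point is a tested gene, with the log2 difference BN-Oil minus HSD-Oil on the horizontal axis and BN-P4 minus HSD-P4 on the vertical axis. Green marks the 391 genes called under both treatments in the same direction, yellow the 506 called under progesterone and not called under oil, and circles the 8 genes whose differences differed between the treatments.

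Not being called under oil does not show that a gene differed between treatments. Of the 506 genes called under progesterone and not under oil, 211 had an unadjusted p below 0.05 for the difference of the differences. Across all genes 1133 (7.22%) had such a p. The 506 were picked on the same libraries, by a call under progesterone and none under oil, which favours a low p in this test. The 211 are therefore not comparable with the share of all genes and are not evidence of a difference between treatments. In edgeR 8 of all 15697 tested genes (0.051%) passed the adjusted threshold for the difference of the differences. Lao1, for instance, stood at 0.105 ± 0.0912 CPM in HSD and 0.185 ± 0.126 CPM in BN under oil, and its difference between treatments was not called (log2 -4.18 ± 1.01, adjusted p = 0.228).

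Among the 8 genes, Il17re differed between the strains under progesterone and not under oil. It stood at 38.5, 31.4 and 32.03 CPM in HSD with oil, 33.9, 27.7 and 33.9 CPM in BN with oil, 26.96, 26.3 and 25.7 CPM in HSD with progesterone and 65.6, 82.4 and 78.3 CPM in BN with progesterone. The BN libraries with progesterone thus stood above all other libraries (log2 1.61 ± 0.17, adjusted p = 0.0041 for the strain difference under progesterone minus that under oil). Arnt2, a partner of bHLH-PAS transcription factors, stood at 616, 500.2 and 567 CPM in HSD with oil and 256, 271 and 292 CPM in BN with oil. With progesterone it stood at 77.3, 87.01 and 82.5 CPM in the HSD libraries and 125, 111 and 129.9 CPM in the BN libraries. HSD was above BN under oil and below it under progesterone (log2 1.61 ± 0.15, adjusted p = 0.00198). RT1-A2 was similar under oil (136 ± 38.7 CPM in HSD and 158 ± 35.9 CPM in BN) and apart under progesterone (log2 -2.32 ± 0.32, adjusted p = 0.0231). Atp7b, the copper-transporting ATPase, stood at 1.54 ± 0.079 CPM in HSD and 1.97 ± 0.399 CPM in BN under oil and 26.1 ± 3.01 CPM in HSD and 7.203 ± 1.71 CPM in BN under progesterone (log2 -2.22 ± 0.30, adjusted p = 0.0231). Slc25a15, the mitochondrial ornithine carrier, encoded on chromosome 16 like Atp7b, stood at 19.9 ± 2.53 CPM in HSD and 43.5 ± 3.43 CPM in BN under oil and 256 ± 34.4 CPM in HSD and 169 ± 49.1 CPM in BN under progesterone (log2 -1.73 ± 0.26, adjusted p = 0.0367). The progesterone contrast of Arnt2 had an edgeR adjusted p of up to 0.069 for Arnt2 without BN-P4 replicate 3.

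Of the other 3 of the 8, Emid1 and Clu were called lower in BN under oil and were not called under progesterone, and Csrp2 was called under both treatments in opposite directions. Emid1, an extracellular matrix protein, stood at 103 ± 4.34 CPM in HSD and 55.05 ± 1.098 CPM in BN under oil and 38.5 ± 0.999 CPM in HSD and 39.9 ± 3.99 CPM in BN under progesterone (log2 0.96 ± 0.13, adjusted p = 0.0231), with 83.3% intron reads. Clu, the secreted chaperone clusterin, stood at 1349.6 ± 17.3 CPM in HSD and 598 ± 23.3 CPM in BN under oil and 356 ± 70.2 CPM in HSD and 369 ± 10.1 CPM in BN under progesterone (log2 1.22 ± 0.19, adjusted p = 0.0367). Csrp2, a LIM-domain protein, stood at 22.1 ± 6.12 CPM in HSD and 41.9 ± 2.06 CPM in BN under oil and 56.1 ± 12.1 CPM in HSD and 32.4 ± 1.68 CPM in BN under progesterone (log2 -1.71 ± 0.26, adjusted p = 0.0367). The higher Csrp2 level was that of BN under oil and that of HSD under progesterone. Clu and Csrp2 fall outside the rule for named genes and are named to complete the 8. Arnt2 and Il17re kept the call in all 24 alternatives that could be run, RT1-A2 and Atp7b in 18, Slc25a15 in 15, Clu in 14, Emid1 in 13 and Csrp2 in 11.

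**Figure D5:**
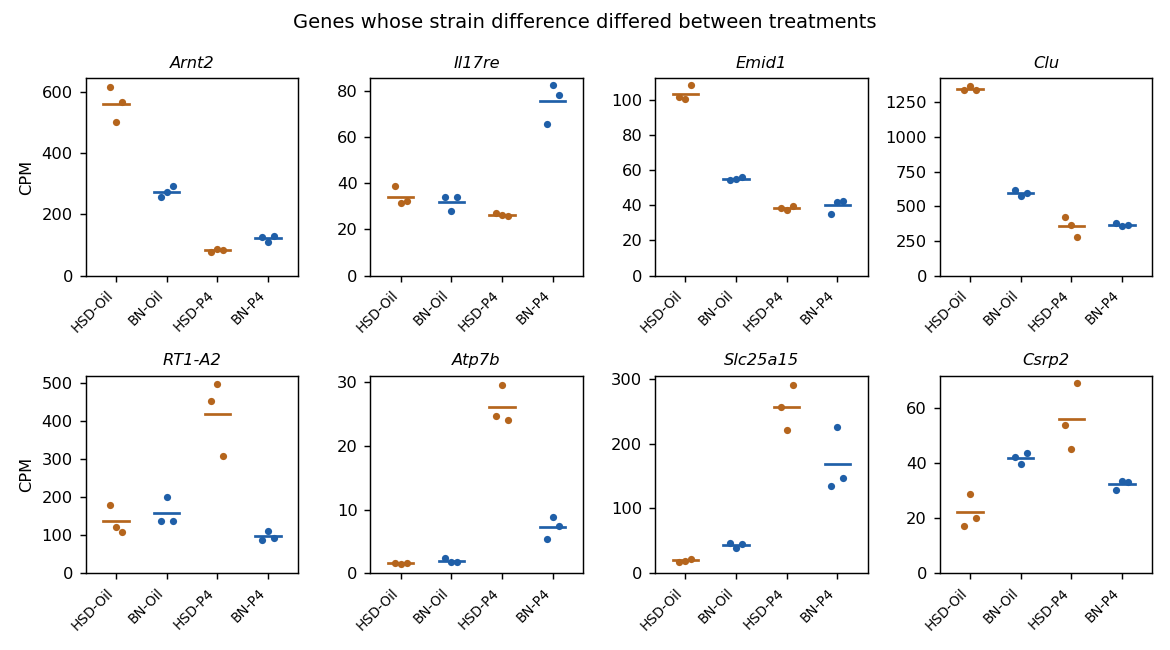
Each panel gives the level of a gene in CPM on a linear axis from 0 in the 4 groups, with points for single libraries, bars for the mean of 3, HSD in orange and BN in blue. In the Il17re panel the 3 BN-P4 points lie above all others, and in the Arnt2 panel the order of the strains is opposite under the 2 treatments.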

How the data were processed

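Per the labels' protocols, Trizol RNA was selected for poly(A) and made into TruSeq RNA libraries, a kit that does not mark strand. The authors deposited, per library, counts of total and unique gene reads, exon and intron reads, and RPKM, which per the file headers are exon reads scaled by exon length and depth. Per the submitters' processing notes the genome build was Rnor_5.0. For the aligner and the counting tool the sources used here give no name. All gene coordinates are those of the files, and promoters are of GRCr8.

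Counts of total gene reads of all 12 libraries were fitted in R 4.3.3 with edgeR 4.0.16 (filterByExpr, TMM scaling, robust quasi-likelihood fit, 4 groups, 8 residual degrees of freedom), which kept 15697 of 26312 genes. The common biological coefficient of variation was 0.157. Contrasts were BN minus HSD under progesterone, the same under oil, and their difference. A call required a p below 0.05 after Benjamini-Hochberg adjustment across the tested genes. Standard errors are the absolute log2 difference divided by the square root of the F statistic. At these depths 3 reads are 0.158 to 0.245 CPM before TMM scaling. Alternatives used limma 3.58.1, DESeq2 1.42.0, sva 3.50.0, other scalings, filters and read classes, and 1 library fewer. The fit was checked on simulated data.

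Named genes have a symbol and are the 12 largest differences in each direction (at least 5 CPM in the higher group, no overlap, at least 50% unique reads), the 5 largest in each direction below that unique share, the 6 largest CPM gaps in each direction, called genes of 45 lists, 6 genes of the treatment difference, and genes in runs of at least 3. Uncalled members of the steroid receptor and progesterone lists could be named too. Members and lists were chosen with earlier results of these data known. Replicate numbers follow accession order and pair no libraries. No replicate pair looked like 1 library deposited again. Some called genes that the lists count are not reported here by name.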

Additional observations from a re-analysis of the deposited data

Results flagged for a closer look

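In 8 genes the strain difference under progesterone differed from that under oil in edgeR's test of the difference of differences (adjusted p below 0.05 over 15697 genes). Each value here is the log2 strain difference, BN minus HSD, under progesterone minus the same under oil. It was 1.61 for Arnt2 and 1.61 for Il17re, whose BN level with progesterone stood above that of every other group. It was 0.96 for Emid1 and 1.22 for Clu, where HSD exceeded BN under oil and the groups lay close together under progesterone. It was -2.22 for Atp7b and -2.32 for RT1-A2, where HSD exceeded BN under progesterone. It was -1.73 for Slc25a15 and -1.71 for Csrp2, where BN exceeded HSD under oil. Under progesterone Slc25a15 was not called between the strains, and Csrp2 was lower in BN.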

How the results depend on the processing

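The 900 calls under progesterone became 1519 with DESeq2, 1688 with limma voom, 566 on exon reads, 515 and 478 with limma on log2(RPKM + 0.1) and log2(RPKM + 1), and 409 with only the 6 progesterone libraries, the cause of which was not tested. Leaving out 1 library gave 341 to 1515 calls. The 391 calls shared with oil became 230 on exon reads, 221 and 213 with the RPKM fits, 744 with voom and 219 to 482 with 1 library left out. The 8 calls of the treatment difference became 14 with 1 surrogate variable, 118 with DESeq2, 14 with limma on log2(RPKM + 1), 26 with voom and 2 to 17 with 1 library left out. Of 4139 values of named genes under the alternatives, 3493 kept direction and side of the threshold, 623 lost the call, 6 gained it and 17 changed sign.

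The sign changes were Add2 (-0.57 and -0.092 with the RPKM fits), Emid1 (-0.16 on exon reads, -0.087 and -0.072 with the RPKM fits, -0.019 to 0.10 with 1 library left out, below 0 without BN-P4 replicate 2 or BN-P4 replicate 3), Igsf11 (0.032 on exon reads, 0.13 and 0.086 with the RPKM fits), RT1-T24-1 (-0.52 on exon reads, -0.045 with log2(RPKM + 1)), Smlr1 (-0.52 and -0.086), Thumpd1 (-0.021 on exon reads) and Vom2r37 (-0.052 and -0.0068). Exon reads and RPKM leave out introns, which held most reads of these genes, and the part of this in the sign changes was not tested. The leave-out fits of Emid1 counted total gene reads, introns included. No paired analysis was possible because replicate numbers were given in accession order. Depth limits genes near 3 reads per library, as in 39 called genes with 3 or fewer reads in every library of the lower group.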

Other observations

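Lists not described so far held few calls in the progesterone-treated uterus. Of the cell cycle and immediate early genes 2.70% and 4.0% were called, where 5.73% of all tested genes were. Of 37 cell cycle genes, Ccnb1, a cyclin of mitosis, was lower in BN at 2.35, 2.69 and 2.53 CPM in the HSD libraries and 1.04, 1.12 and 1.63 CPM in the BN libraries (log2 -0.99 ± 0.26, adjusted p = 0.0438). Of 25 immediate early genes, Ier3 was lower at 102, 87.8 and 98.5 CPM in the HSD libraries and 59.7, 68.2 and 79.2 CPM in the BN libraries (log2 -0.48 ± 0.12, adjusted p = 0.0323). In edgeR with 1 library left out the adjusted p was up to 0.174 for Ccnb1 and 0.131 for Ier3 without BN-P4 replicate 1. In edgeR 0 of 15 Hedgehog pathway genes and 0 of 19 circadian clock genes were called, with 6 and 3 at an unadjusted p below 0.05, and DESeq2 called 2 and 0 and voom 1 and 2.

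Of 11 skeletal muscle markers, 2 were called (18.2%, where 5.73% of all tested genes were). Ckm, muscle creatine kinase, was lower in BN at 3.22, 5.61 and 1.36 CPM in the HSD libraries and 0.927, 0.853 and 0.58 CPM in the BN libraries (log2 -2.11 ± 0.45, adjusted p = 0.017), and Mb, myoglobin, was higher at 0.261, 0.055 and 0.0589 CPM in the HSD libraries and 0.695, 0.59 and 0.58 CPM in the BN libraries (log2 2.43 ± 0.57, adjusted p = 0.0273) with 86.5% intron reads. For these 2 genes leave-outs gave edgeR adjusted p values of up to 0.082 for Ckm without BN-P4 replicate 3, and 0.109 for Mb without BN-P4 replicate 1. Among squamous (5), oviduct and ciliated cell (10) and ovary (8) markers 0 were called in edgeR, with 2, 3 and 0 at an unadjusted p below 0.05, and voom called 0, 1 and 0 of them and DESeq2 none.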
